A study of Mus musculus with 12 samples.

Results

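The 10 genes described here carry iron into liver cells, store it, release it, or set the hormone that limits its release. They are Trf, Hpx, Tfrc, Tfr2, Slc39a14, Fth1, Cp, Slc40a1, Bmp6 and Hamp, chosen by name from a count table of 56205 mouse genes. Ensembl identifiers were matched to symbols, all 10 were found, and all 10 passed the filter on low counts. The livers came from ob/ob mice (B6.Cg-Lep ob/J), which lack leptin, become obese and accumulate liver fat, so every animal in both groups carried the same leptin mutation. Whole liver was extracted, poly(A) RNA was sequenced, and each sample gave 1 library. The FLO group (6 libraries) received standard chow, and the fibrotic group (6 libraries) received the same chow with ethionine, the ethyl analogue of methionine. Per the study's methods, the mice were males, 8 to 10 weeks old when ethionine began. The sources disagree on the treatment. The series design and treatment labels give 0.165% DL-ethionine in drinking water, the former for 2 weeks, while the growth label speaks of an injection of 0.15% and the study's methods of 0.15% in water for 1 week. No lean or leptin-replete group was among the samples, and the word fibrotic is the label of the treated group rather than a measurement made here. For ob/ob mice given ethionine, the study reported the collagen gene Col1a1 and Zfp469 as not different. It describes that model by microvesicular steatosis and inflammation.

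Iron travels in blood on transferrin and enters cells through transferrin receptors, surplus iron is held in ferritin, and ferroportin, encoded by Slc40a1, is the only known route out of cells. Hepcidin, the hormone made by hepatocytes from Hamp, binds ferroportin and has it degraded, so that hepcidin limits iron release from macrophages, the gut and the liver. Bone morphogenetic proteins (BMPs) from liver endothelium drive Hamp through SMAD proteins, interleukin-6 drives it through STAT3, and inside cells the iron regulatory proteins bind hairpins called iron-responsive elements in the mRNAs of several of these genes.

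The fibrotic libraries held 17815568 to 20352675 counts each, and the FLO libraries 18275320 to 24814263. FLO replicate 3 stood apart before any comparison, since it held 3773 counts of the X-inactivation transcript Xist and 4 of Y-linked Ddx3y, against 0 to 4 and 556 to 977 in the other 11. That pattern goes against the stated male sex. Its label was kept, and beside the results that it moves most stands the value with FLO replicate 3 left out. The labels name no sequencing batch. The labels state 6 mice per group but not whether they shared litters or cages, so p-values measure the spread between these samples. Levels are given in CPM, the counts scaled to the TMM-normalised library size. Log2 fold changes are fibrotic against FLO from the edgeR quasi-likelihood test with Benjamini-Hochberg adjustment over the 13416 genes that passed the filter. Calls needed both an adjusted p at or under 0.01 and a log2 fold change beyond 0.5 in either direction.

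Of the 10 iron handling genes, 4 were called higher in fibrotic livers (Tfrc, Hpx, Bmp6 and Slc40a1) and 3 lower (Tfr2, Slc39a14 and Cp). Among all tested genes 29.9% were called, 15.9% higher and 14.0% lower. Hamp, Trf and Fth1 were not called. The 6 fibrotic and 6 FLO values did not overlap for 5 of the 10 (Tfr2, Slc39a14, Cp, Slc40a1 and Hpx), against 30.4% of all tested genes. The median log2 fold change of the 10 was 0.24, beside 0.03 over all tested genes. Without FLO replicate 3, none of the 10 calls changed.

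Gene positions below are those of GENCODE M21 on GRCm38. Levels can be set against each other only per length, and the order can depend on the transcript chosen. As mean CPM per kilobase of the longest coding transcript, the order in FLO livers was Trf (6810), Hpx (2618), Fth1 (2120), Hamp (421), Tfr2 (168), Cp (165), Slc40a1 (38.0), Slc39a14 (36.3), Tfrc (4.69) and Bmp6 (1.43). In that order the ranges of the libraries overlapped between Hpx and Fth1, Tfr2 and Cp, and Slc40a1 and Slc39a14, and no other neighbours overlapped. In fibrotic livers Tfr2 (40.7) came after Cp (102) and Slc40a1 (54.8), and the other 7 genes kept their places, with overlaps between Trf and Hpx, Slc40a1 and Tfr2, and Slc39a14 and Tfrc.

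**Figure D1:**
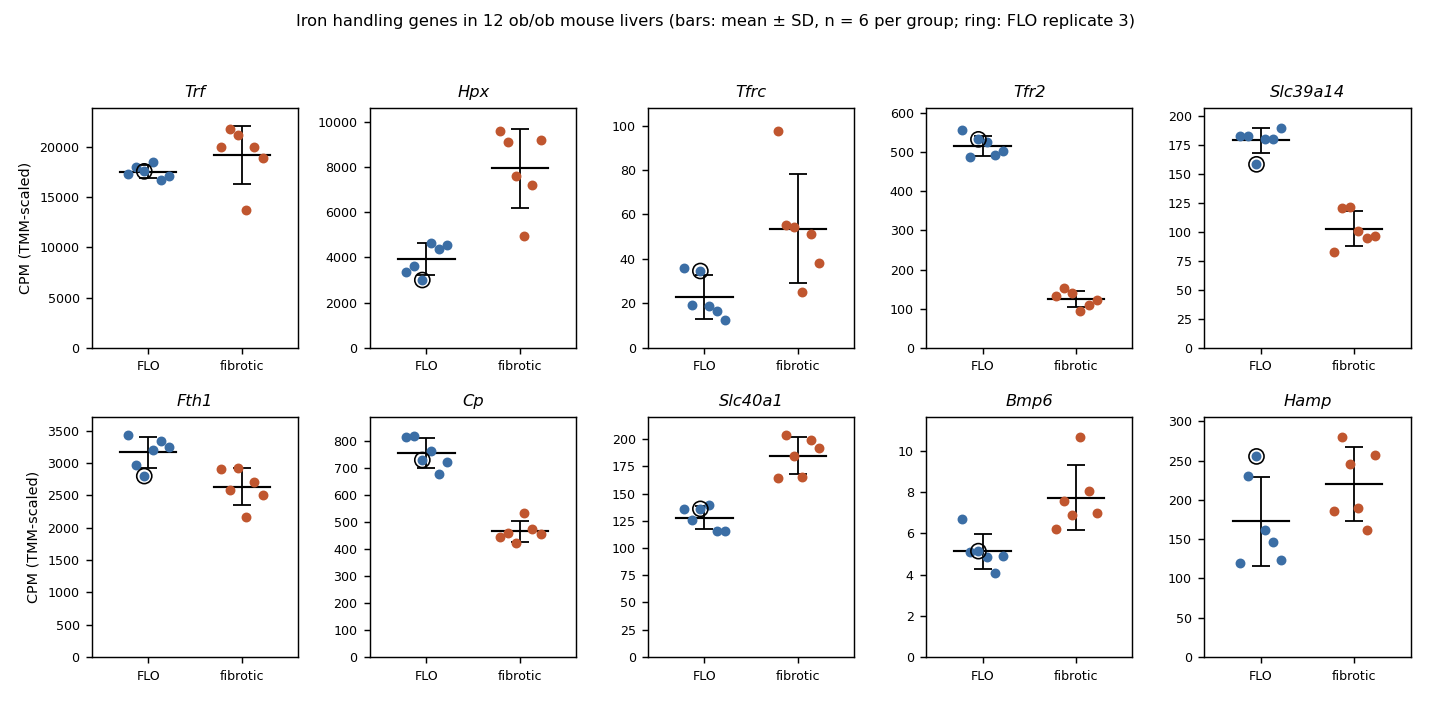
Level of each of the 10 iron handling genes in CPM (vertical axes from 0), with 1 point per library for FLO and fibrotic livers, horizontal lines at the mean, bars of 1 SD (n = 6 per group) and a ring around FLO replicate 3. The groups are apart for Hpx, Tfr2, Slc39a14, Cp and Slc40a1, the widest gap being that of Tfr2 (94.1 to 153 CPM against 487 to 555 CPM).

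Trf (ENSMUSG00000032554, chr9:103204001-103230444, minus strand) encodes transferrin, the plasma iron carrier. Its level was 13709.5 CPM in the lowest fibrotic library, 19934 at the median and 21726 in the highest, against 16710, 17423 and 18458 CPM in FLO. The fibrotic values bracketed the FLO range, with 5 of 6 above the FLO median and fibrotic replicate 4 below every FLO library. Its log2 fold change was 0.13 (95% interval -0.12 to 0.39, SE 0.12, adjusted p = 0.373). Trf shares 2108 exonic bases on the same strand with the annotated gene Gm20425, which was not analysed here, so a part of its reads could have been assigned elsewhere.

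The transferrin receptors moved in opposite directions. Tfrc (ENSMUSG00000022797, chr16:32608920-32632794, plus strand) encodes transferrin receptor 1, the general uptake receptor for iron-loaded transferrin. It was at 25.2 CPM in the lowest fibrotic library, 52.8 at the median and 97.6 in the highest, and at 12.5, 19.0 and 35.9 CPM in FLO. All 6 fibrotic libraries lay above the FLO median, but the groups overlapped, because fibrotic replicate 4 (25.2 CPM) was below FLO replicates 1 and 3 (35.9 and 34.6 CPM). For Tfrc the log2 fold change was 1.23 (SE 0.33, adjusted p = 0.00769), and it was 1.38 (adjusted p = 0.00503) without FLO replicate 3. The call was close to the threshold: leaving out single libraries gave 0.97 to 1.40, and 8 of 12 such fits put the adjusted p above 0.01, with 0.0183 the highest.

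Tfr2 (ENSMUSG00000029716, chr5:137569840-137587481, plus strand) encodes transferrin receptor 2, which hepatocytes use to sense iron-loaded transferrin upstream of hepcidin. It had the largest absolute log2 fold change of the 10 genes. Its level ran from 94.1 to 153 CPM (median 126) in fibrotic and from 487 to 555 CPM (median 514) in FLO livers. Every fibrotic library was below every FLO library, by a wide margin. On the log2 scale Tfr2 differed by -2.05 (SE 0.11, adjusted p = 3.37e-09) and stayed between -2.11 and -1.97 when any 1 library was left out. Per kilobase of the longest coding transcript, the level of Tfr2 was 24.5 to 63.9 times that of Tfrc in FLO livers (median 42.4), and 2.15 to 5.94 times in fibrotic livers (median 4.26). In every library Tfr2 thus remained the more abundant receptor transcript on this per-length scale. The number of cells of a type and the RNA each cell holds cannot be told apart in whole-liver libraries, here and for every gene below.

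Slc39a14 (ENSMUSG00000022094, chr14:70303469-70351425, minus strand) encodes ZIP14, the main importer of iron that is not bound to transferrin. It was between 82.5 and 121 CPM (median 98.7) in fibrotic and between 158 and 190 CPM (median 181) in FLO livers. The groups did not overlap, and the lowest FLO value was that of replicate 3. For Slc39a14 it was -0.80 on the log2 scale (SE 0.10, adjusted p = 7.22e-06), and -0.83 without that library. Among the other uptake and reduction genes of the list (Slc11a2, Steap2, Steap3, Steap4, Slc39a8, Scara5, Cybrd1, Heph, Lcn2 and Ltf), 8 of 10 were tested, 0 were called higher and 1 lower, Steap4. This metalloreductase fell by 0.56 on the log2 scale (edgeR adjusted p = 0.000762), and was not called without FLO replicate 6, at -0.49. The median of the 8 was 0.27, and among all tested genes 29.9% were called.

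Fth1 (ENSMUSG00000024661, chr19:9980598-9985098, plus strand) encodes the heavy chain of ferritin, the subunit that oxidises iron for storage. Its level was 2169 to 2931 CPM (median 2649) in fibrotic and 2798 to 3441 CPM (median 3226) in FLO livers. All 6 fibrotic libraries were below the FLO median, yet the ranges overlapped at FLO replicate 3, the lowest of its group. The log2 fold change was -0.27 (95% interval -0.48 to -0.05, SE 0.10, adjusted p = 0.0395), which did not meet the call rule. Without FLO replicate 3 it was -0.30 (adjusted p = 0.0296).

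The ferritin light chain gene Ftl1, from the storage list, was called higher. It was at 8412 to 14412 CPM in fibrotic and 7361 to 8394 CPM in FLO libraries and rose by 0.73 on the log2 scale (SE 0.13, adjusted p = 0.000291). The groups were just apart, as fibrotic replicate 4 was at 8412 CPM while the other 5 were at 13098 CPM or more. The Ftl1 level per kilobase was 5.99 to 8.52 times that of Fth1 in fibrotic livers (median 7.81) and 3.76 to 4.06 times in FLO livers (median 3.81). These ratios set the light chain against the heavy chain within each library and did not overlap between groups. They use lengths of 968 bases for Ftl1 and 1494 bases for Fth1, and a shorter Fth1 transcript would make them lower in both groups. Of the storage and iron regulatory protein genes, 7 of 8 were tested. Against 29.9% called among all tested genes, 2 of these were called higher (Ftl1 and Pcbp1) and 1 lower (Aco1). Their median was 0.08, and it was 0.16, 0.03, 0.13 and 0.03 without fibrotic replicate 1, fibrotic replicate 4, FLO replicate 1 and FLO replicate 6. Pcbp1, an iron chaperone that loads ferritin, had a log2 fold change of 0.59 (adjusted p = 3.05e-06). Pcbp2, of the same list, went the other way, at -0.45 (edgeR adjusted p = 0.000141). Its groups did not overlap, but it fell short of the fold threshold and was not called. Of the 7 log2 fold changes in this list, 4 were positive and 3 negative. Aco1, which encodes iron regulatory protein 1, fell by 0.53 (adjusted p = 0.000386), and its call was lost without fibrotic replicate 1, fibrotic replicate 4 or FLO replicate 1, where the fold change was -0.50, -0.49 and -0.49.

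Of the 10 genes, 3 hold iron-responsive elements that could be found by their letters, as does Ftl1 from the storage list. Alas2, from the erythroid marker list, also had a 5′ UTR match, which is not shown. The search asked for a C, 5 stem bases, the loop CAGTGN and 5 bases that pair with the stem. It covered only the longest coding GENCODE M21 transcript of each gene, on GRCm38. Sites on other transcripts, or with a less regular stem, would be missed. A match was found in the 5′ UTR of 20 of 21901 genes (0.0913%) and in the 3′ UTR of 118 (0.539%). The 30-base sites are shown because the position in the mRNA is what differs between the genes, with the loop in capitals. Fth1, Ftl1 and Slc40a1 have 1 match each in the 5′ UTR, where the bound protein is known to block translation. Tfrc has 4 matches in the 3′ UTR, where the bound protein is known to protect the mRNA.
Fth1, chr19:9982732-9982761, plus strand, 5′ UTR: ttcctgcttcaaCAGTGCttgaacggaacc
Ftl1, chr7:45459778-45459807, minus strand, 5′ UTR: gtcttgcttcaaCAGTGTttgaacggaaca
Slc40a1, chr1:45925464-45925493, minus strand, 5′ UTR: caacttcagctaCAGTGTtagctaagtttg
Tfrc, chr16:32631219-32631248, plus strand, 3′ UTR: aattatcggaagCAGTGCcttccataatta
Tfrc, chr16:32631598-32631627, plus strand, 3′ UTR: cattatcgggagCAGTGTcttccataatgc
Tfrc, chr16:32631663-32631692, plus strand, 3′ UTR: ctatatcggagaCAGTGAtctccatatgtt
Tfrc, chr16:32631710-32631739, plus strand, 3′ UTR: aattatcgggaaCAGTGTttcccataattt
Of the 4 genes shown, Tfrc, Slc40a1 and Ftl1 were called higher and Fth1 had a log2 fold change of -0.27. Fth1, Ftl1 and Slc40a1, with a 5′ UTR site, thus did not share a direction. RNA levels do not measure translation, through which such a 5′ site is known to act.

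Slc40a1 (ENSMUSG00000025993, chr1:45908068-45926523, minus strand) encodes ferroportin, the iron exporter. Its level was 165 to 204 CPM (median 188) in fibrotic livers and 115 to 139 CPM (median 131) in FLO livers. Every fibrotic library was above every FLO library. The log2 fold change was 0.53 (SE 0.08, adjusted p = 8.52e-05), just over the fold threshold. It was 0.50, a little under that threshold before rounding, without FLO replicate 5 or FLO replicate 6, with adjusted p-values no higher than 0.00147 in any alternative. Kupffer cells, the liver macrophages that export iron through ferroportin, had higher marker sums in fibrotic livers (200.005 to 386 against 145 to 185 CPM for 8 markers), whose part in this result was not tested.

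Cp (ENSMUSG00000003617, chr3:19957054-20009145, plus strand) encodes ceruloplasmin, the copper oxidase that helps ferroportin hand iron to transferrin. It was lower in fibrotic livers, at 424 to 533 CPM (median 457) against 679 to 819 CPM (median 745). The groups did not overlap. Cp fell by 0.70 on the log2 scale (SE 0.09, adjusted p = 8.96e-06), so the exporter and its partner oxidase moved in opposite directions. Cp shares 108 exonic bases with Hps3 on the opposite strand.

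Hpx (ENSMUSG00000030895, chr7:105591613-105600137, minus strand) encodes hemopexin, the plasma protein that binds free haem. Its level ran from 4942 to 9599 CPM (median 8347) in fibrotic and from 3000 to 4659 CPM (median 3996) in FLO livers. The groups did not overlap, though fibrotic replicate 4 (4942 CPM) came close to the highest FLO library. Hpx rose by 1.02 on the log2 scale (SE 0.17, adjusted p = 0.000122), and 0.95 (adjusted p = 0.000368) without FLO replicate 3, the lowest FLO library.

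Other genes of haemoglobin and haem disposal moved both ways. Of 9 tested, 3 were called higher (Cd163, Hmox1 and Hmox2) and 2 lower (Slc48a1 and Blvra, the latter named after its values were seen). The shares among all tested genes were 15.9% higher and 14.0% lower. The median of the 9 was 0.22, and it was 0.37, 0.13 and 0.13 without fibrotic replicate 4, fibrotic replicate 6 and FLO replicate 3. Cd163, the macrophage receptor for haptoglobin-bound haemoglobin, rose by 0.81 (adjusted p = 0.00356). Hmox1 and Hmox2, which encode the haem oxygenases that open the haem ring, rose by 0.72 and 0.58 (adjusted p = 0.00292 and 3.24e-06). Cd163 and Hmox1 overlapped between groups, and Hmox2 did not. Slc48a1, a transporter that moves haem out of lysosomes, fell by 0.57 (adjusted p = 9.64e-05). Of the 8 haem synthesis genes, 0 were called higher and 2 lower (Uros, -0.64, and Alad, -0.55), and all 8 log2 fold changes were negative, with a median of -0.16. The call of Alad was lost without fibrotic replicate 4, at -0.42.

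**Figure D2:**
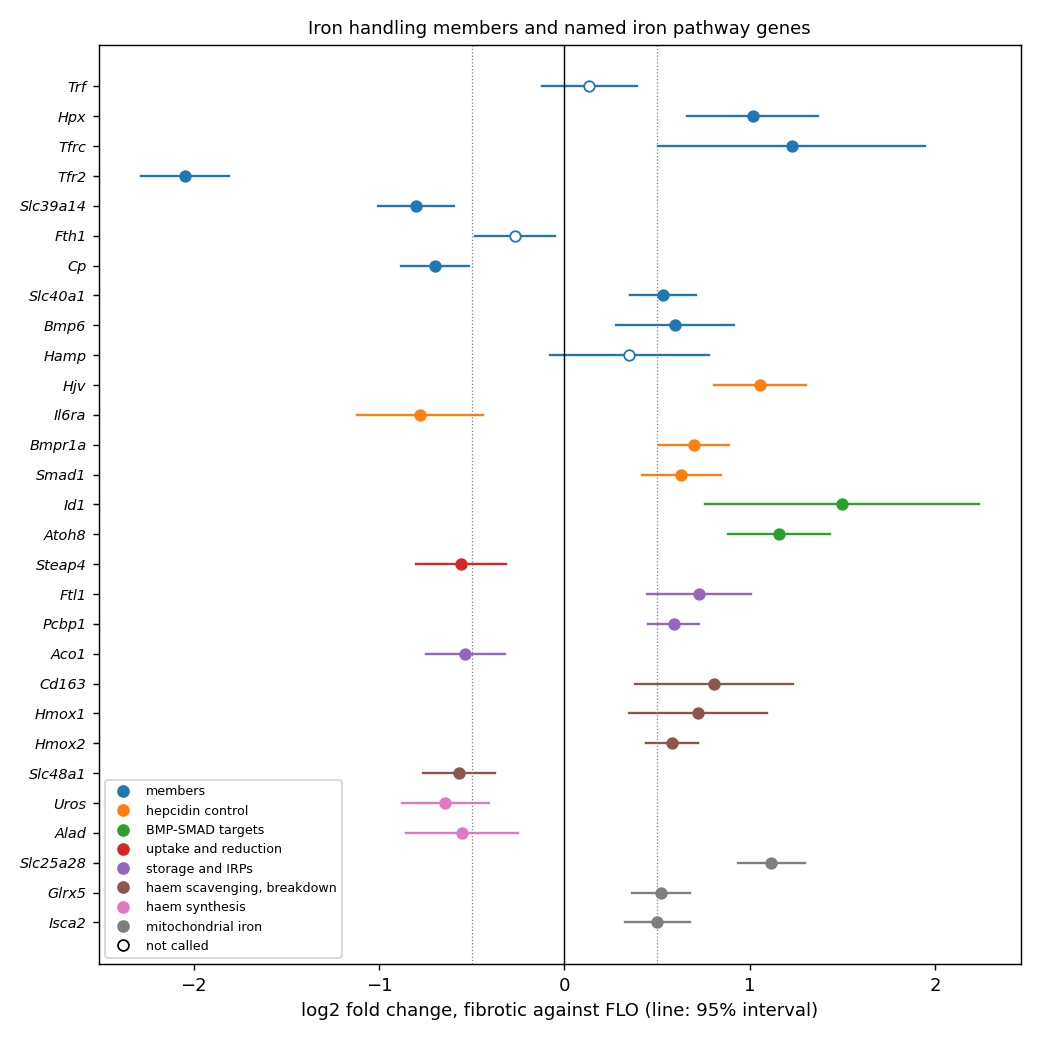
Log2 fold change of fibrotic against FLO livers (horizontal axis) for the 10 iron handling genes and the named genes of the iron pathway lists, with 95% intervals, filled points for called genes, open points for genes not called and dotted lines at the fold threshold of 0.5. Tfr2 lies farthest to the left at -2.05, and Trf, Fth1 and Hamp are the open points.

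Bmp6 (ENSMUSG00000039004, chr13:38345107-38500302, plus strand) encodes the BMP ligand that liver endothelium releases when iron is high, the main physiological inducer of hepcidin. Its reads were few, 128 to 228 per fibrotic and 69 to 122 per FLO library. The level was 6.21 to 10.7 CPM (median 7.29) in fibrotic and 4.09 to 6.67 CPM (median 4.99) in FLO livers. All 6 fibrotic libraries were above the FLO median, and the ranges overlapped through FLO replicate 1 at 6.67 CPM. On the log2 scale Bmp6 rose by 0.59 (SE 0.15, adjusted p = 0.00366). Without fibrotic replicate 4, the highest library, it was 0.49 and no longer past the fold threshold. Bmp6 shares 224 exonic bases with Txndc5 on the opposite strand, and Txndc5 itself had a log2 fold change of 0.04. Txndc5 was far more abundant, at 176 to 220 CPM in fibrotic and 156 to 236 CPM in FLO livers. The use of strand in counting is not given, so part of the Bmp6 count could come from Txndc5 reads. Markers of the sinusoidal endothelium that makes Bmp6 had lower sums in fibrotic livers (223 to 273 against 280 to 324 CPM for 9 markers), whose part was not tested.

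Hamp (ENSMUSG00000050440, chr7:30942368-30944032, minus strand) encodes hepcidin. Its level was 161 CPM in the lowest fibrotic library, 218 at the median and 280 in the highest, and 119, 154 and 255 CPM in FLO. All 6 fibrotic libraries were above the FLO median, but FLO replicates 2, 3 and 4 (230, 255 and 162 CPM) lay inside the fibrotic range. The log2 fold change was 0.35 (95% interval -0.08 to 0.78, SE 0.20, adjusted p = 0.156), not called. Without FLO replicate 3 it was 0.50 (SE 0.18, adjusted p = 0.0375), still short of the call rule. The interval over all libraries holds 0 and reaches 0.78.

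Mice have a second gene, Hamp2, whose transcript matched that of Hamp at 93.3% of 417 aligned bases, so reads of one could be counted to the other. Hamp2 was at 11.7 to 67.3 CPM (median 30.4) in fibrotic and 22.4 to 485 CPM (median 66.9) in FLO livers. The highest value was that of FLO replicate 3, the library with Xist, and the next FLO value was 115 CPM. The log2 fold change of Hamp2 was -1.86 (SE 0.78, adjusted p = 0.0668), and -0.79 without that library. Hamp2 made up 6.75% to 21.5% of the summed CPM of both genes in fibrotic libraries (median 12.3%) and 13.3% to 65.5% in FLO libraries (median 28.2%), where the highest share was 49.1% without FLO replicate 3. With the counts of both genes summed, the log2 fold change was -0.25 (adjusted p = 0.567), and 0.23 (adjusted p = 0.359) without FLO replicate 3. The sign of the summed value therefore depended on 1 library, FLO replicate 3. Hamp alone stayed positive, at 0.26 to 0.50, when any 1 library was left out.

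The promoters of both hepcidin genes are printed because Hamp and Hamp2 lie near each other on chromosome 7 and differ at a known control element. The sequences are the 150 bases before the RefSeq start on GRCm38.p6, minus strand, chr7:30944030-30944179 for Hamp and chr7:30924182-30924331 for Hamp2. GENCODE M21 places Hamp2 at chr7:30922372-30924681, with an earlier start than RefSeq. The Hamp2 window thus lies inside the gene as GENCODE annotates it. Capitals mark the BMP-SMAD element GGCGCC and the STAT motif TTCNNNGAA, patterns that read the same on either strand, so that both strands were searched at once.
Hamp: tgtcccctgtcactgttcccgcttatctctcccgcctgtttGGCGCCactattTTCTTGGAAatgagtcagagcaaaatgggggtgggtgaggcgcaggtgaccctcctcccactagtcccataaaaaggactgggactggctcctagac
Hamp2: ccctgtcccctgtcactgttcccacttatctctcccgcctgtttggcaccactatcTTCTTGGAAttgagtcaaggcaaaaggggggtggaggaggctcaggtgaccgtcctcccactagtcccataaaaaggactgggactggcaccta
Over 247 aligned bases upstream of the starts, the pair was 91.9% identical. Hamp held GGCGCC at 109 to 104 bases upstream and TTCTTGGAA at 97 to 89. Hamp2 held only the latter, at 94 to 86, and the substitution G106A, counted upstream from the Hamp start with the Hamp base first, fell inside the element. Among 32851 promoter windows of the same length, GGCGCC was in 7.01%, TTCNNNGAA in 4.09%, and both in 41 (0.125%). These matches describe letters and were not tested as binding sites.

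**Figure D3:**
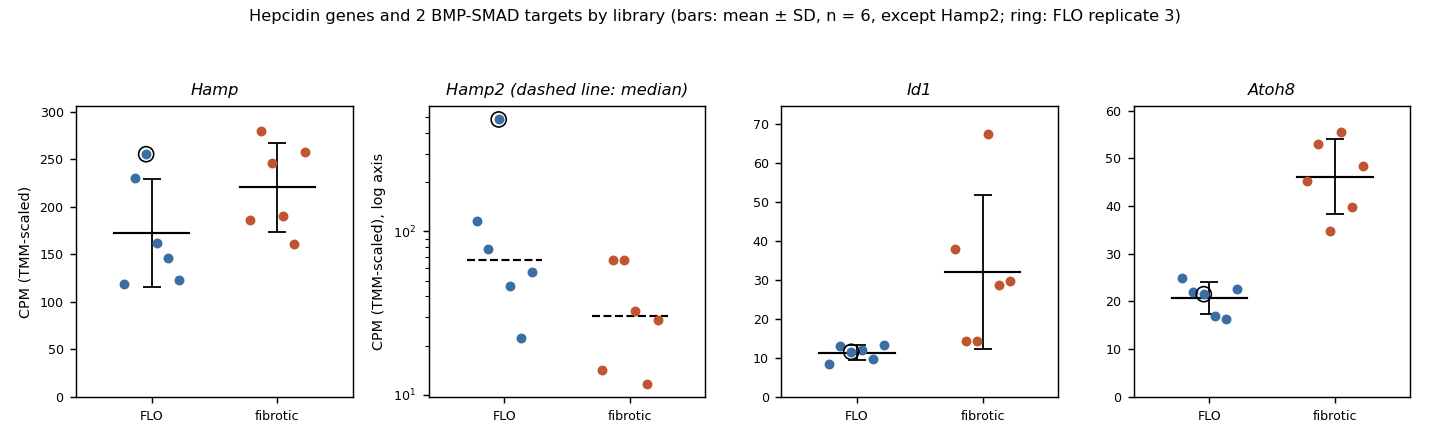
Level in CPM of Hamp, its near copy Hamp2 (log axis, dashed lines at the medians) and the BMP-SMAD target genes Id1 and Atoh8, with 1 point per library, means and SD bars (n = 6 per group) for the other 3 genes, and a ring around FLO replicate 3. FLO replicate 3 has the highest Hamp2 level (485 CPM), and the groups are apart for Id1 and Atoh8 but not for Hamp.

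Of 17 genes of the hepcidin control list, 16 were tested, 3 were called higher (Hjv, Bmpr1a and Smad1) and 2 lower (Il6ra and Tmprss6), close to the 29.9% called among all tested genes. Their median was 0.17, and 0.09 without fibrotic replicate 4. Hjv, the BMP co-receptor hemojuvelin, was at 166 to 277 CPM in fibrotic and 96.2 to 129 CPM in FLO livers and rose by 1.05 (SE 0.12, adjusted p = 3.13e-06). Tmprss6, the protease that cuts hemojuvelin from the cell surface, was at 401 to 569 against 663 to 822 CPM and fell by 0.54 (SE 0.10, adjusted p = 0.00037). Tmprss6 was chosen for description after its values were seen, being the fifth called gene by size in its list.

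Bmpr1a, a type I BMP receptor, and Smad1, the signal carrier it phosphorylates, rose by 0.70 and 0.63 (adjusted p = 1.2e-05 and 8.74e-05). Smad5 and Bmpr2, of the same list, had log2 fold changes of -0.34 and -0.20 (edgeR adjusted p = 0.00569 and 0.0627). Neither was called, though Smad5 did not overlap between groups. Of the 16 log2 fold changes in this list, 9 were positive and 7 negative. Il6ra, the interleukin-6 receptor chain on hepatocytes, fell by 0.78 (adjusted p = 0.000885). Erfe, the hormone by which erythroblasts lower hepcidin, had at most 3 counts in any library and was not tested. Gdf15 and Fgl1, of the same list, had log2 fold changes of 1.07 and 0.62 (edgeR adjusted p = 0.0107 and 0.0141). Neither was called, and both overlapped between groups.

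Among 6 targets of BMP-SMAD signalling other than hepcidin (Id1, Id2, Id3, Smad6, Smad7 and Atoh8), 2 were called higher, 0 lower, and the median was 0.87. The share called among all tested genes was 29.9%. Of the 6 log2 fold changes 5 were positive and 1 was negative, that of Smad6 (-0.46, edgeR adjusted p = 0.0051). Smad6, Id2, Id3 and Smad7 overlapped between groups and were not called. Id1, an inhibitor of basic helix-loop-helix factors, was at 14.2 to 67.4 CPM in fibrotic and 8.31 to 13.2 CPM in FLO livers, a rise of 1.50 (SE 0.34, adjusted p = 0.00255), with the highest value in fibrotic replicate 4. Atoh8, a helix-loop-helix factor, was at 34.8 to 55.5 against 16.2 to 24.8 CPM, a rise of 1.16 (SE 0.13, adjusted p = 3.32e-06). Neither Id1 nor Atoh8 overlapped between groups, as held for 30.4% of all tested genes, whereas Hamp did overlap. Without fibrotic replicate 4 the median of the 6 targets was 0.57.

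The remaining iron list and the 7 iron lists together stood near the background. Of 10 genes of mitochondrial iron and iron-sulphur assembly, 3 were called higher, 0 lower, and the median was 0.03, which went down to 0.00165 when fibrotic replicate 3 was left out and up to 0.06 when fibrotic replicate 4 was. Slc25a28 (mitoferrin 2), a mitochondrial iron importer, rose by 1.12 (adjusted p = 9.34e-08), and the assembly genes Glrx5 and Isca2 rose by 0.52 and 0.50. Both were close to the fold threshold: Glrx5 was not called with upper quartile normalisation (0.49), and was lost without fibrotic replicate 6 (0.499839). Isca2 was called in 10 of 20 alternatives and was lost with RLE (0.48) or upper quartile (0.47) normalisation, with DESeq2 (0.48), without the low-count filter (0.499147) and without each of 6 of the 12 libraries (lowest 0.47). Over the 7 lists, 64 of 68 genes were tested, 13 were called higher and 8 lower, which is 32.8% against 29.9% of all tested genes.

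The acute phase genes, which respond to interleukin-6 as hepcidin does, moved in both directions. Of 12 tested, 5 were called higher and 2 lower, where all tested genes gave 15.9% and 14.0%. The median was 0.10, and leaving out fibrotic replicate 1, FLO replicate 2, fibrotic replicate 3 or FLO replicate 6 gave 0.06, 0.06, 0.17 and 0.25. Apcs (serum amyloid P) and Orm2 (an orosomucoid) rose by 2.42 and 1.09 (adjusted p = 5.45e-06 and 0.00386). The call of Orm2 was lost without fibrotic replicate 4 (adjusted p = 0.0123), without FLO replicate 2 (0.0104) and without the low-count filter (0.0161). The serum amyloid gene Saa2 and the inhibitor gene Itih4 fell by 1.91 and 1.04 (adjusted p = 0.001 and 8.51e-05). Saa1 had a log2 fold change of -1.33 (adjusted p = 0.0223) and was not called. Orm1 and Orm2, and Saa1 and Saa2, are pairs of similar genes whose reads could be split between them.

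Markers of the liver's cell types were read beside these results, with 15.9% of all tested genes called higher and 14.0% lower. Of 8 Kupffer cell markers, 5 were called higher and 0 lower, all 8 log2 fold changes were positive (median 0.64), and their sums, given above beside Slc40a1, did not overlap between groups. These macrophages also express Cd163 and Hmox1, which were higher too. Of 9 sinusoidal endothelial markers, 8 had negative log2 fold changes (median -0.28), 1 was called lower, and their sums, given beside Bmp6, did not overlap either.

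Of 10 hepatocyte markers, 1 was called higher and 3 lower (median -0.22), and their sum overlapped between groups, at 55181 to 93821 against 79577 to 96295 CPM. Hepatocytes make Tfr2, Hamp, Trf, Cp and Hpx. Of 5 tested erythroid markers out of 8 listed, 1 was called lower (median -0.39), with sums of 485 to 661 against 586 to 1004 CPM, and the defining marker Slc4a1 was at or near 0. Erythroid precursors carry much Tfrc, which was higher. Stellate markers (7 tested, 1 called higher) summed to 249 to 323 against 242 to 288 CPM, and neutrophil markers (1 of 7 tested, 0 called) to 1.13 to 3.93 against 0.711 to 3.96 CPM. The part of these shifts in the other iron handling results was not tested either.

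**Figure D4:**
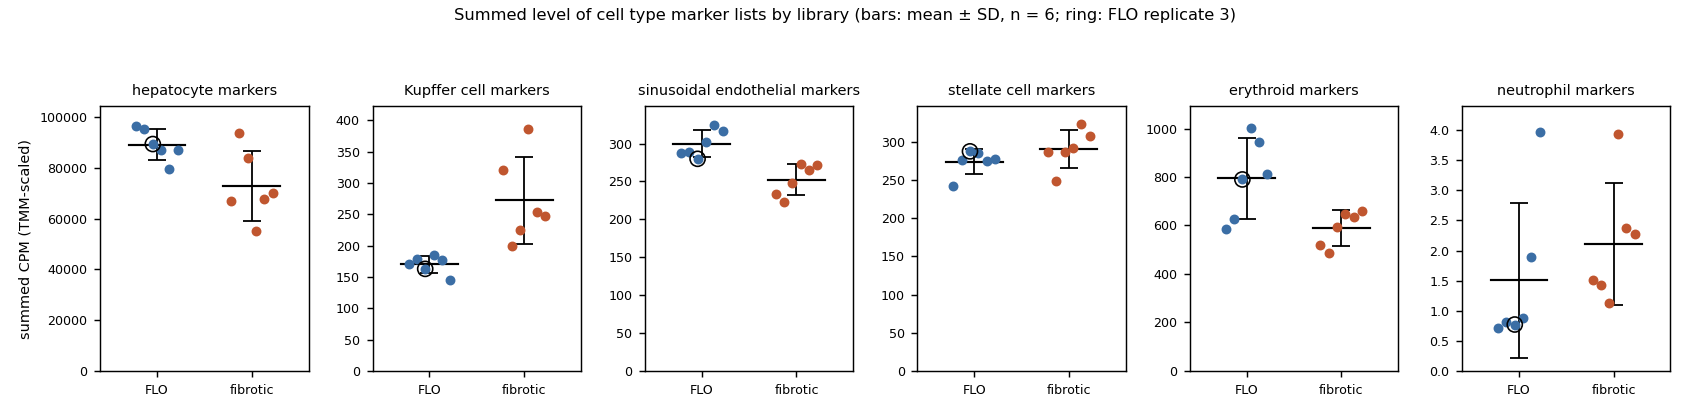
Summed level in CPM of 6 lists of cell type markers, with 1 point per library for FLO and fibrotic livers, means, SD bars (n = 6 per group) and a ring around FLO replicate 3. The Kupffer cell sums are apart and higher in fibrotic livers (200.005 to 386 against 145 to 185 CPM), and the sinusoidal endothelial sums are apart and lower (223 to 273 against 280 to 324 CPM).

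Hamp was compared within each group of 6 libraries with its inducer Bmp6, with Id1 as another BMP-SMAD target and with Saa1 as an acute phase gene. Across the 6 fibrotic libraries, Pearson's r was -0.28 for Hamp with Bmp6, -0.64 with Id1 and -0.28 with Saa1, and across the 6 FLO libraries it was -0.17, 0.44 and -0.40. Single libraries set these values: in FLO, leaving out replicate 1 turned Hamp with Bmp6 to 0.57, took Hamp with Id1 to 0.07 and took Hamp with Saa1 to -0.99. Without FLO replicate 3 the value of Hamp with Bmp6 was -0.27 and that of Hamp with Saa1 was -0.19, without FLO replicate 5 Hamp with Bmp6 was -0.40, and without FLO replicate 6 Hamp with Id1 and Hamp with Saa1 were 0.81 and -0.20. In fibrotic libraries, Hamp with Bmp6 was -0.58 without replicate 1 and -0.07 without replicate 4, and Hamp with Saa1 was -0.63, 0.06, 0.19 and -0.52 without replicates 1, 2, 5 and 6. Tfrc with Fth1 gave r = 0.88 in fibrotic (exact permutation p = 0.0319, adjusted over 8 relations 0.256; Spearman's rho 0.71, exact p = 0.136) and -0.24 in FLO libraries. The FLO value was 0.38 without replicate 3, -0.86 without replicate 1 and -0.15 without replicate 5. Without the 2 libraries farthest from the median, the fibrotic value was 0.64, with 4 libraries left. None of the 8 relations reached an adjusted p of 0.05 by exact permutation, the lowest being 0.256.

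By likeness of profile, the closest genes to Hamp over the 12 libraries were Atp6v0a1, Cnot10 and D10Jhu81e, with mean absolute differences of 0.43, 0.47 and 0.47 in standardised log2 CPM. For Tfrc they were Acp2, Htatip2 and Eipr1, at 0.21, 0.23 and 0.25. The comparison ran over 8425 genes whose log2 CPM averaged 3 or more, and likeness includes the difference between groups that a pair shares.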

How the data were processed

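The values are raw read counts by Ensembl identifier, deposited by the authors without normalisation, for 12 poly(A) RNA libraries of mouse liver. The submitters' processing notes name bcl2fastq, STAR 2.7.3a and mm10, and the study's methods name PISCES. The annotation version and the use of strand in counting are not given in the sources used here. Symbols were matched for 51745 of 56205 identifiers, and Hjv was found under its older symbol Hfe2. Groups and replicate numbers came from the sample titles.

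Counts were fitted in R 4.3.3 with edgeR 4.0.16 (TMM factors, filterByExpr, robust quasi-likelihood test, Benjamini-Hochberg adjustment), and log2 CPM used a prior count of 2. The thresholds were those in the study's methods. The SE is the absolute log2 fold change divided by the square root of F. Alternatives were RLE and upper quartile normalisation, other filters and thresholds, DESeq2 1.42.0, limma-voom (limma 3.58.1), a fit without robust estimation, a replicate block, and leaving out each library. Summing near copies was chosen after seeing the data. Within groups, every pair of libraries differed beyond sampling noise (lowest chi-square per degree of freedom 10.7 over 30 pairs).

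Genes were named by a rule: the 10 members, up to 4 called genes of largest absolute log2 fold change per list, Hamp2, Saa1, Id1, and the 3 closest profiles to Hamp and to Tfrc. Tmprss6, Blvra, Smad6, Gdf15, Fgl1, Pcbp2, Smad5, Bmpr2 and the match of Alas2 were added outside that rule, after their values were seen. Txndc5 was described because its exons overlap those of Bmp6. The members and lists were chosen with earlier results of these data known. Promoters came from RefSeq (GRCm38.p6) and transcripts from GENCODE M21. The promoter table matched Hamp and Hamp2 among the genes shown. Lengths are of the longest coding transcript. The table is taken as given, and positions are those of the reference. 1 marker gene of the erythroid list is not reported here.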

Additional observations from a re-analysis of the deposited data

Results flagged for a closer look

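Single libraries stood far from the rest of their group in 10 of 98 groups of 6 values examined by Dixon's gap ratio. Were the values normally distributed, about 4.9 would be flagged by chance. CPM values need not be normal, and some list sums contain genes also examined singly. No excess over chance can therefore be read from these counts. Fibrotic replicate 4 was the library concerned in 5 of the 10. In it, Trf was lowest at 13709.5 CPM with the next at 18824 (ratio 0.638), Ftl1 was lowest at 8412 with the next at 13098 (0.781), and Hmox1 was highest at 69.2 with the next at 43.0 (0.880). The summed storage and iron regulatory protein genes were lowest there at 9291 CPM with the next at 13930 (0.769), a sum that Ftl1 dominates, and the summed other uptake genes were highest at 397 with the next at 280 (0.726). FLO replicate 3, the library with Xist counts, was highest for Hamp2 at 485 CPM with the next at 115 (0.800), and lowest for Slc39a14 at 158 with the next at 180 (0.688). FLO replicate 6 was highest for Hmox1 at 43.8 CPM with the next at 26.3 (0.849) and for the summed neutrophil markers at 3.96 with the next at 1.90 (0.636). FLO replicate 1 was lowest for the summed stellate cell markers at 242 CPM with the next at 275 (0.717). The reasons for these single values were not tested.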

How the results depend on the processing

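Under an FDR of 0.05 with no fold threshold 6994 genes were called, 39 of them in the iron pathway lists, and with an absolute log2 fold change over 1 these were 1697 and 4, with 3 of the 10 iron handling genes. Tfrc was not called without the low-count filter (1.22, adjusted p = 0.0284, range over its 20 alternatives 0.000301 to 0.0284), where 24871 genes shared the adjustment. The sum of Hamp and Hamp2 gave -0.25, where Hamp alone gave 0.35. Hamp with Saa1 reversed to r = 0.78 in fibrotic and 0.45 in FLO libraries without the 2 farthest libraries, and Tfrc with Fth1 in fibrotic libraries weakened to a rho of 0.71 and an r of 0.64. Leaving out single libraries gave 3798 to 4093 genes called, 5 to 7 iron handling genes, 0.97 to 1.40 for Tfrc, 0.50 to 0.57 for Slc40a1 and 0.49 to 0.68 for Bmp6, and for the correlations -0.58 to -0.07 and -0.40 to 0.57 (Hamp with Bmp6, fibrotic and FLO), -0.82 to -0.47 and 0.07 to 0.81 (Hamp with Id1, fibrotic and FLO), -0.63 to 0.19 and -0.99 to -0.19 (Hamp with Saa1, fibrotic and FLO), and 0.71 to 0.95 and -0.86 to 0.38 (Tfrc with Fth1, fibrotic and FLO). The cause of these changes was not tested. Replicate numbers did not pair the samples: same-number libraries correlated at -0.16 to 0.10, and 0 of 6 correlated best with their own number. With the replicate block 1994 genes were called higher and 1786 lower, Bmp6 (0.59, adjusted p = 0.0140, range over its 20 alternatives 0.00138 to 0.0140) and Id1 (1.31) were not, and the other 9 iron handling genes kept their side of the threshold. Tfr2, Slc39a14, Cp and Hpx were called under each of their alternatives at the stated thresholds. Id1 also lost its call without the low-count filter. The tested neutrophil marker had no value when 10 counts were asked of every sample. Bmp6 rested on 69 to 228 reads per library, the fewest of the 10 iron handling genes.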
